A study of Mus musculus with 4 samples.

Results

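Gas5, Snhg1, Snhg3, Snhg5, Snhg6, Snhg8 and Snhg12 are noncoding genes of the mouse that carry small nucleolar RNAs (snoRNAs) in their introns. The 7 genes were chosen by name, and their transcripts were found in each library by matching runs of exon and intron lengths to a mouse annotation. They were 7 of 12878 genes named in this way. Expression was measured by sequencing polyadenylated RNA of C2C12 cells, myoblasts of an established mouse muscle line that leave the cell cycle and fuse into myotubes in low serum. The libraries were growth (-24 h, exponential growth in 20% fetal bovine serum) and 60 h, 120 h and 168 h after confluent cells were moved to low serum, with 1 library at each time. The labels name no transgene, mutation or drug, and all libraries came from this 1 line. With 1 library per time point there is no replicate check and no test, and every difference is between 2 libraries.

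A snoRNA host gene is transcribed and spliced like a messenger RNA. The snoRNA is trimmed out of the excised intron, while the joined exons leave the nucleus, carry no long reading frame and are often destroyed by nonsense-mediated decay. Box C/D snoRNAs guide methylation and box H/ACA snoRNAs guide pseudouridylation of ribosomal RNA, and some H/ACA RNAs act in its cleavage. Many host genes start with a run of pyrimidines, the terminal oligopyrimidine element of genes for ribosomal proteins, and the Gas5 spliced RNA was found because it accumulates in growth-arrested mouse fibroblasts. Mature snoRNAs have no poly(A) tail and the libraries were made from polyadenylated RNA, so the gene values describe the host RNAs. Some assembled exons ran over annotated introns and snoRNAs, so the values are not of fully spliced RNA alone. Single-exon pieces over some snoRNAs were assembled and are given below. Whether they came from mature snoRNAs was not tested.

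The annotation (GENCODE M21, GRCm38) places 27 snoRNAs inside the 7 genes: 9 in Gas5, 8 in Snhg1, 4 in Snhg12, 2 each in Snhg3 and Snhg5, and 1 each in Snhg6 and Snhg8. Introns of the annotated length were assembled in at least 1 library for 26 of the 27. The exception was Gm25855, in the 634-base first intron of Snhg1. Assembled transcripts of the 7 genes held 41 introns, of which 32 had an annotated length and 25 held a snoRNA. No exon ran past both ends of any of the 41. Each of these was spliced in at least 1 library, so the 634-base intron of Snhg1 is not among them. The count therefore does not show that no intron was kept. In Gas5, a 240-base intron spliced at 120 h was covered up to its last base by an exon at 60 h and at 168 h. That exon was the last of the form with introns of 557, 178 and 193 bases. Between the end of a snoRNA and the nearest annotated 3′ splice site lay 51 to 314 bases, with a median of 75, and 22 of the 27 distances were 65 to 81 bases.

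The following snoRNAs of GENCODE M21 (GRCm38) are shown as examples of both classes, at least 1 from each host, with the near-identical pairs. For the box C/D snoRNAs, of Gas5 (Snord47, plus strand, chr1:161038082-161038158), Snhg1 (Snord22, plus strand, chr19:8725866-8725991), Snhg5 (Snord50a, chr9:88521529-88521600, and Snord50b, chr9:88521797-88521868, minus strand), Snhg6 (Snord87, minus strand, chr1:9942463-9942549) and Snhg12 (Snord99, plus strand, chr4:132310691-132310764), capitals mark the letters TGATGA of box C and CTGA of box D, searched on the strand of the gene.
Snord47: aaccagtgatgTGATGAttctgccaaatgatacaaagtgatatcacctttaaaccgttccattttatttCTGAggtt
Snord22: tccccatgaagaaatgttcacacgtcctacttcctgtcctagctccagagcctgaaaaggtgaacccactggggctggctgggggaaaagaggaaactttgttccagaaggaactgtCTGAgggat
Snord50a: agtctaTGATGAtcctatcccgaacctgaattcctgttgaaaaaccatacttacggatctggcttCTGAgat
Snord50b: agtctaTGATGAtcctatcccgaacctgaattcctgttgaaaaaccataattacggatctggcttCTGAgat
Snord87: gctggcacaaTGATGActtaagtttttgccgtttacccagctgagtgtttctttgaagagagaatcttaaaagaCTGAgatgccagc
Snord99: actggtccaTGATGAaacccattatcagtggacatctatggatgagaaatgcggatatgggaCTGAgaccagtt
For the box H/ACA snoRNAs, of Snhg3 (Snora73a, chr4:132352775-132352979, and Snora73b, chr4:132352322-132352526, minus strand), Snhg8 (Snora24, minus strand, chr3:123507937-123508066) and Snhg12 (Snora61, plus strand, chr4:132310240-132310369), capitals mark the letters ACA that lie 3 bases from the end.
Snora73a: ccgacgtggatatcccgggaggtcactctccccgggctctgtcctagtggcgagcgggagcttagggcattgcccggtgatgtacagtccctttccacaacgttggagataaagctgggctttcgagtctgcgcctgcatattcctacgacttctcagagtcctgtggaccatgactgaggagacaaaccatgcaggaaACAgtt
Snora73b: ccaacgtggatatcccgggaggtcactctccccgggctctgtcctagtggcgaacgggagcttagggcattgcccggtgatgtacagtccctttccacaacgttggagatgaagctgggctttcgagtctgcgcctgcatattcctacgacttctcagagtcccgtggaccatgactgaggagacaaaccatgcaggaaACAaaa
Snora24: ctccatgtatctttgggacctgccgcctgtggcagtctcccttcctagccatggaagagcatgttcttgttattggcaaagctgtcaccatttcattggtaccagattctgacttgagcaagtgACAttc
Snora61: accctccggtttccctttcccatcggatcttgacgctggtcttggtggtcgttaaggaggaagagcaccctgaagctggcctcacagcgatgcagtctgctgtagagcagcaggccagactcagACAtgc
Searched within the first 20 bases, the letters TGATGA are not found in Snord22, Snord78, Gm22489, Gm25894 or Gm24453, and ACA is not found 3 bases from the end of Snora44.
Snora73a and Snora73b, copies of the RNA known as U17 or E1 that acts in ribosomal RNA cleavage, each have 205 bases, of which 198 are identical. Snord50a and Snord50b each have 72 bases, of which 71 are identical.

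Promoters of 6 of the 7 genes, all but Snhg6, were matched in RefSeq (GRCm38.p6). They are shown from 50 bases before the annotated start to 25 after it because the oligopyrimidine class is defined there. Capitals mark the letters TATA where they begin 40 to 20 bases before the start, with overlapping matches joined, and a run of at least 6 C or T letters that reaches within 5 bases before to 15 after the start, both on the transcribed strand. The windows are chr1:161035116-161035190 on the plus strand for the Gas5 start nearest to the assembled first exon, chr19:8723437-8723511 on the plus strand for Snhg1, chr4:132353662-132353736 on the minus strand for Snhg3, chr9:88522873-88522947 on the minus strand for Snhg5, chr3:123508312-123508386 on the minus strand for Snhg8 and chr4:132308628-132308702 on the plus strand for Snhg12.
Gas5: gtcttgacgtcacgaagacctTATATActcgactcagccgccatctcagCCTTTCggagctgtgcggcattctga
Snhg1: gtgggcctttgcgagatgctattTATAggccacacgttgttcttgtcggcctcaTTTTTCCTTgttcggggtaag
Snhg3: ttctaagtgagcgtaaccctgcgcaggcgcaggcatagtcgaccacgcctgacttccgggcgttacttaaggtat
Snhg5: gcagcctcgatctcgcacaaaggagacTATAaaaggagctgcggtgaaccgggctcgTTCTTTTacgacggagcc
Snhg8: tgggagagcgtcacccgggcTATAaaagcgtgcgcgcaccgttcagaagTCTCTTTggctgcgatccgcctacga
Snhg12: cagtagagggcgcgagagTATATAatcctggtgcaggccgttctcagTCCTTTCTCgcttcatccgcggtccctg
Gas5, Snhg1, Snhg5, Snhg8 and Snhg12 held both features. Snhg3 held neither, its longest run being 5 letters, and neither was found at the other annotated start of Gas5. Of 32851 RefSeq promoters, 5.70% held TATA in that window, 28.7% held such a run and 1.88% held both. A match is a description of the letters and not of a site in use.

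Levels are in FPKM, fragments per kilobase scaled to library size, summed over the transcripts of a gene. After ± stands the distance to the deposited confidence limit, added in quadrature over transcripts, which covers no variation between cultures. The words rose and fell, or called, are kept for differences that passed a size rule: a log2 ratio of FPKM + 1 of 1 or more in either direction, 1 FPKM or more in the higher library and intervals apart. Because the assembler broke some of these genes into pieces, a sum can count a gene more than once. It is therefore set beside the FPKM through the introns and beside the FPKM over the merged exons. The former takes, for each intron, the FPKM of every transcript spliced there, and then the median over introns. The latter takes all fragments in the gene's assembled transcripts over the merged exons, the union of the exons of a gene in all libraries.

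The libraries held 28513976 fragments in growth, 48228887 at 60 h, 24488681 at 120 h and 43845262 at 168 h, so the 120 h library was the shallowest. The 5 markers of growing myoblasts summed to 455.4 FPKM in growth, 118.3 at 60 h, 53.9 at 120 h and 24.1 at 168 h, and the 6 markers of myotubes to 47.9, 8028, 11147 and 10225 FPKM. Of 7 markers of other cells the culture could hold, Cd68, Vwf and Runx2 were named and summed to 14.5, 12.8, 30.5 and 15.9 FPKM, Vwf was listed at 0 in growth, and Ptprc, Pecam1, Adipoq and Col2a1 were named in no library. Their part in the results was not tested. In bulk RNA, fewer cells of a type and less RNA per cell cannot be told apart.

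**Figure D1:**
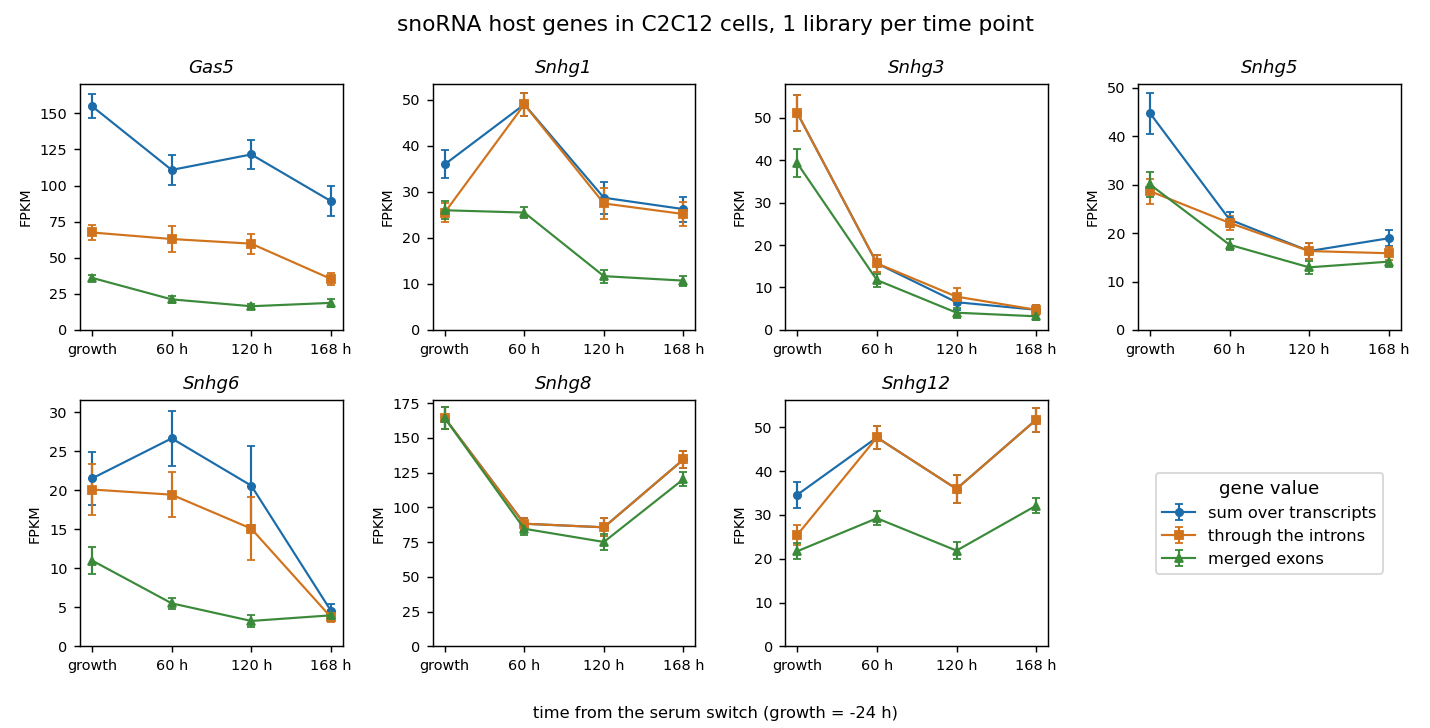
FPKM of each host gene (vertical axes, 1 panel per gene) by time point (growth first), with 1 library each. Circles are sums over transcripts, squares the FPKM through the introns and triangles the merged exons, with bars to the deposited confidence limits. Snhg3 has its lowest level at 168 h and Snhg12 its highest by all 3 values, and Gas5 and Snhg6 show how far the values can part.

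At 60 h against growth, Snhg3 fell and no other of the 7 genes passed the size rule. Of 12550 genes compared, 15.4% fell and 11.1% rose, or 1935 and 1393 genes, which became 1367 and 1730 with median-ratio rescaling. The median log2 ratio of the 7 genes by sums was -0.48, beside -0.18 over all genes compared. Through the introns it was -0.10, beside -0.18, and over the merged exons -0.74, beside -0.03. Whether the 7 genes lay below the other genes thus depended on the value used. By sums, 4 of the 7 genes were lower at 60 h than in growth. Through the introns 5 were lower, and over the merged exons 6 were. Snhg3 was the 1 gene that fell by each of the 3 values. Through the introns 11.2% of genes fell and 7.34% rose, and over the merged exons 10.2% fell and 11.1% rose.

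At 168 h against growth, Snhg3, Snhg5 and Snhg6 fell and none of the 7 genes rose, where 18.5% of 12555 genes fell and 15.6% rose, or 2324 and 1959 genes, which became 1870 and 2291 with median-ratio rescaling. The median log2 ratio of the 7 genes by sums was -0.79, beside -0.11 over all genes compared. Through the introns it was -0.82, beside -0.19, and over the merged exons -1.04, beside -0.12. Snhg1 fell as well over the merged exons, where 18.8% of genes fell and 14.7% rose. Through the introns Snhg3 and Snhg6 fell, where 18.4% fell and 11.4% rose, so those were the genes called by all 3 values. Snhg12 was the 1 gene of the 7 that was higher at 168 h than in growth by each value, and it did not pass the rule.

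At each later step 1 of the 7 genes passed by sums. At 120 h against 60 h Snhg3 fell, where 3.89% of genes fell and 12.4% rose (488 and 1556 genes, and 641 and 1156 with median-ratio rescaling), and the median of the 7 genes was -0.40, beside 0.15 over all genes. That call was made over the merged exons too, together with Snhg1, where 4.52% fell and 2.16% rose. No gene of the 7 was called through the introns, where 1.52% fell and 2.63% rose. At 168 h against 120 h Snhg6 fell by sums, where 10.1% of genes fell and 4.2% rose (1258 and 525 genes, and 984 and 655 with median-ratio rescaling). It fell through the introns, where 2.55% fell and 1.36% rose, and not over the merged exons, where 2.67% fell and 3.52% rose.

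**Figure D2:**
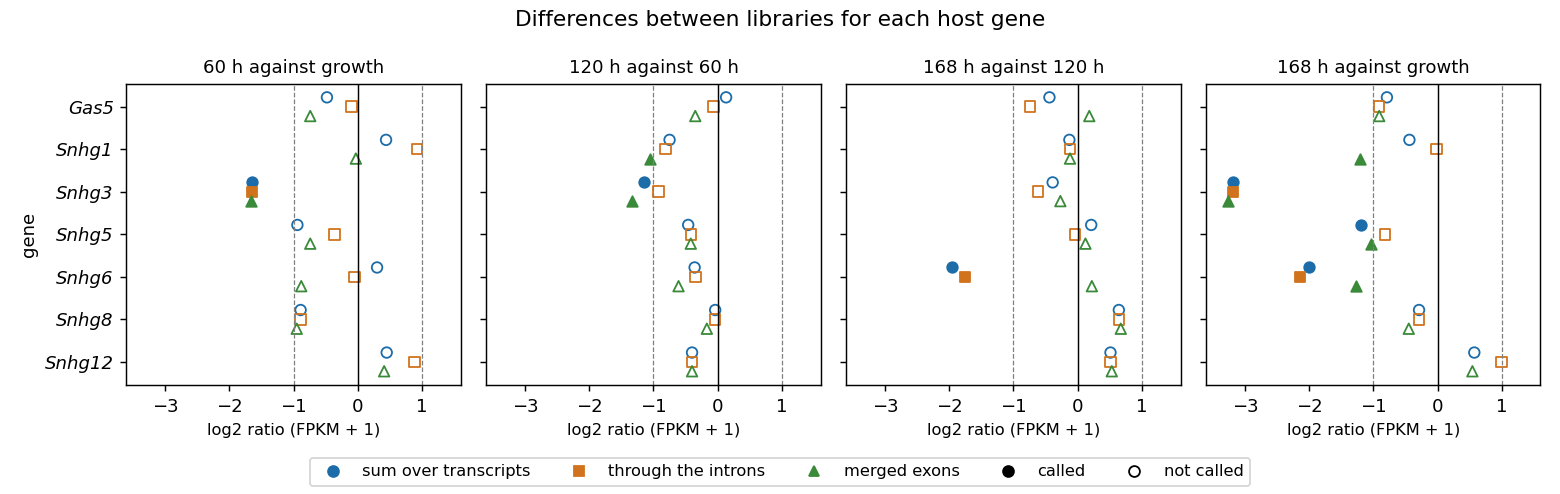
Log2 ratio of FPKM + 1 for each of the 7 genes (rows) in the 4 comparisons (panels), by the sum (circles), through the introns (squares) and over the merged exons (triangles). Filled symbols passed the size rule, and dashed lines mark 2-fold. The 3 symbols of Snhg3 lie together at 60 h and at 168 h against growth, while those of Snhg6 at 168 h against 120 h lie on both sides of 0.

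Gas5, with 9 annotated snoRNAs, was among the 2 most abundant of the 7 genes by sums in all libraries (chr1:162965178-162968637, plus strand, in the files' own coordinates). It held 155.0 ± 8.26 FPKM in growth, 110.8 ± 10.3 at 60 h, 121.6 ± 10.1 at 120 h and 89.2 ± 10.2 at 168 h. The growth interval lay above the others. Its log2 ratio was -0.48 at 60 h against growth and -0.79 at 168 h against growth, short of the rule. Through the introns Gas5 held 67.5 ± 5.46, 63.0 ± 9.24, 59.8 ± 6.95 and 35.4 ± 4.26 FPKM in the same order. For the merged exons the values were 36.1 ± 1.86, 21.2 ± 2.21, 16.4 ± 1.35 and 18.7 ± 2.57 FPKM. Its log2 ratio at 168 h against growth was -0.91 by either of these values. In no low-serum library was Gas5 higher than in growth by any of the 3 values.

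No assembled Gas5 transcript spanned the whole gene in growth, at 120 h or at 168 h. In growth 63.2% of its FPKM lay in a 5′ form with introns of 557, 178 and 193 bases and 24.0% in a 3′ form with introns of 447, 187 and 184 bases. The form with the first 3 of those introns, ended by one of 240 bases, took 68.3% at 120 h, and the 3′ form took 40.3% at 60 h and 39.6% at 168 h. At 60 h a form of 7 exons joined both ends through introns of 575 and 1372 bases and held 37.5 ± 7.65 FPKM. A 5′ form with a 192-base intron in place of the 193-base one took 34.4% at 168 h. The 2 ends of the gene differed. Through the 557-base first intron, which holds Gm26224, expression was 97.9 ± 6.92 FPKM in growth, 66.2 ± 9.33 at 60 h, 83.1 ± 8.10 at 120 h and 51.7 ± 8.98 at 168 h. Through the 184-base last intron, which holds Gm25789, it was 37.1 ± 4.003, 82.2 ± 8.82, 36.5 ± 5.80 and 35.4 ± 4.26 FPKM. Through that last intron the 60 h library stood above the other 3, whose intervals overlapped. Through the introns of 447 and 187 bases before it, the 60 h value, 44.7 ± 4.38 FPKM, overlapped that of growth, 37.1 ± 4.003 FPKM.

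**Figure D3:**
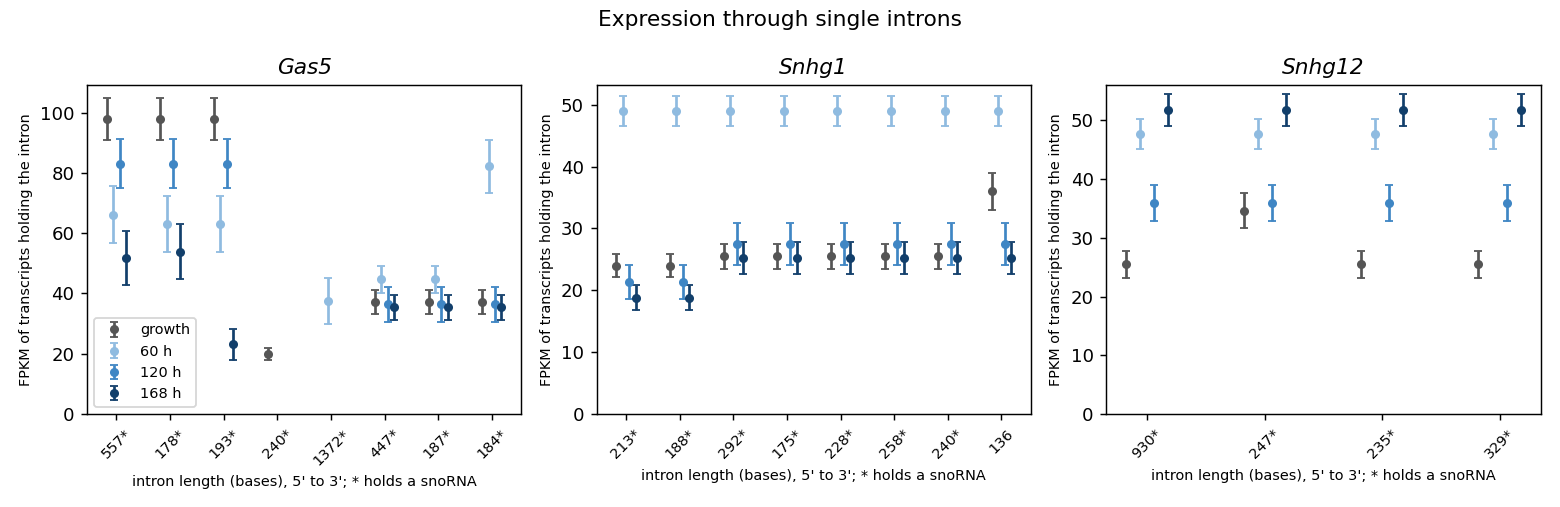
FPKM of the transcripts that hold each intron of annotated length, ordered from the 5′ to the 3′ end of Gas5, Snhg1 and Snhg12 and labelled by length in bases, with a star where the intron holds a snoRNA. Bars reach to the deposited limits, and shades run from growth to 168 h. The values step between the ends of Gas5 and are level along Snhg1 at 60 h and along Snhg12 at 60 h, 120 h and 168 h.

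Snhg1, the U22 host gene, carries Snord22 and 7 other snoRNAs (chr19:8797997-8800935, plus strand). It held 36.0 ± 3.02 FPKM in growth, 49.0 ± 2.43 at 60 h, 28.7 ± 3.496 at 120 h and 26.3 ± 2.70 at 168 h. The 60 h library was highest, and those at 120 h and 168 h overlapped. Over the merged exons the values were 26.0 ± 1.92, 25.5 ± 1.26, 11.7 ± 1.39 and 10.7 ± 1.07 FPKM. By that value the growth and 60 h libraries overlapped and both stood above the later 2, and Snhg1 fell at 120 h against 60 h (log2 ratio -1.06) and at 168 h against growth (-1.21). Through the introns Snhg1 held 25.5 ± 2.01 FPKM in growth, 49.0 ± 2.43 at 60 h, 27.5 ± 3.35 at 120 h and 25.2 ± 2.59 at 168 h, with log2 ratios of 0.92 at 60 h and -0.02 at 168 h against growth, not called. By sums the ratios at 120 h against 60 h and at 168 h against growth were -0.75 and -0.44, not called, and the merged values rescaled by median ratio gave -0.88 and -0.98, not called.

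A chain of 8 introns made up 66.6% of Snhg1 expression in growth, 100% at 60 h, 74.4% at 120 h and 71.7% at 168 h. A form that left out the exon between the introns of 213 and 188 bases, joining them into an intron of 482 bases, held 1.54 ± 0.829 FPKM in growth, 6.12 ± 1.95 at 120 h and 6.37 ± 1.63 at 168 h, and was not assembled at 60 h. It took 4.29% of Snhg1 in growth, 21.3% at 120 h and 24.3% at 168 h. In growth 29.1% lay in a 2-exon piece around the last intron, of 136 bases. The longest exon assembled before the 213-base intron had 683 bases in growth, 173 at 60 h, 47 at 120 h and 47 at 168 h. The RefSeq start lies 703 bases before that intron, and the annotated 634-base intron with Gm25855 lies in that stretch. The exon took in all of Gm25855 in growth and 66.7% of it at 60 h. No spliced form covered any of it at 120 h or 168 h. The longer exons thus hold bases of an annotated intron, which the merged value counts. The merged exons come to 1324 bases in every library, so the assembled length of that exon is no divisor in the merged value. Fragments over bases that no assembled transcript of the gene holds are not counted there, however. A shorter assembled exon can therefore lower the merged value. How far this and the intron bases bear on the falls of Snhg1 over the merged exons was not tested.

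Snhg5, the host of Snord50a and Snord50b, fell at 168 h against growth (chr9:88415890-88417699, minus strand, for its main chain in growth). It held 44.8 ± 4.23 FPKM in growth, 22.8 ± 1.55 at 60 h, 16.3 ± 1.66 at 120 h and 18.9 ± 1.67 at 168 h. Growth stood above the other libraries, and those at 120 h and 168 h overlapped. The log2 ratio at 168 h against growth was -1.20 by sums and -1.04 over the merged exons, both called, and -0.82 through the introns, not called. At 60 h against growth it was -0.94. The chain with introns of 201, 201, 331 and 102 bases held 28.7 ± 2.56 FPKM in growth, 22.1 ± 1.38 at 60 h, 16.3 ± 1.66 at 120 h and 15.8 ± 1.34 at 168 h. In growth 23.2% of Snhg5 lay in a 2-exon piece around the 102-base intron. A form with a 76752-base intron of no annotated length held 5.73 ± 2.42 FPKM in growth and 1.78 ± 0.788 at 168 h. Of the 50-base words of Snhg5 transcripts, 9.18% also occur in 9330159M07Rik or 9430037G07Rik, so its fragments may be shared with these.

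Snhg6, the host of Snord87, fell at 168 h against growth by all 3 values (chr1:9932144-9934252, minus strand). It held 21.5 ± 3.38 FPKM in growth, 26.7 ± 3.504 at 60 h, 20.6 ± 5.09 at 120 h and 4.59 ± 0.803 at 168 h. By sums the first 3 libraries overlapped and the 168 h library stood below them. The log2 ratio at 168 h against growth was -2.01 by sums, -2.15 through the introns and -1.27 over the merged exons. The step at which the difference appeared depended on the value used. Over the merged exons Snhg6 held 11.01 ± 1.69, 5.53 ± 0.705, 3.27 ± 0.806 and 3.99 ± 0.698 FPKM, and the 60 h library lay below growth with a log2 ratio of -0.88, not called. At 168 h against 120 h the ratio was -1.95 by sums and 0.22 over the merged exons.

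The assembled length of Snhg6 differed between those libraries. Its 2-intron form with introns of 167 and 218 bases had 250 exon bases at 60 h and 205 at 120 h, against 1114 in growth and 1120 at 168 h. The longest exon assembled before the 218-base intron, which holds Snord87, had 964 bases in growth, 95 at 60 h, 89 at 120 h and 958 at 168 h. In growth, 62.4% of the expression lay in a form with a further intron of 1328 bases, assembled in no other library. A splice site 6 bases away gave an intron of 173 in place of 167 bases, and forms with it took 6.61% of multi-exon expression in growth, 20.6% at 60 h, 26.7% at 120 h and 17.9% at 168 h. Snhg6 overlaps Mcmdc2 on the opposite strand, and the protocol is not described as marking strand, so their fragments cannot be separated.

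Snhg3, the host of Snora73a and Snora73b, showed the largest difference of the 7 genes (chr4:131903920-131909567, minus strand). It held 51.1 ± 4.30 FPKM in growth, 15.7 ± 2.06 at 60 h, 6.53 ± 1.87 at 120 h and 4.75 ± 1.13 at 168 h. The first 3 libraries were apart, and those at 120 h and 168 h overlapped. Snhg3 fell at 60 h against growth (log2 ratio -1.64), at 120 h against 60 h (-1.15) and at 168 h against growth (-3.18). The ratios against growth were -1.64 and -3.18 through the introns and -1.66 and -3.26 over the merged exons, and at 120 h against 60 h the ratio was -0.92 through the introns, not called. The fragments behind these values numbered 565 in growth, 286 at 60 h, 50 at 120 h and 71 at 168 h. Among named genes in its library Snhg3 stood at percentile 86.3 in growth, 65.3 at 60 h, 33.8 at 120 h and 33.0 at 168 h.

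The chain with introns of 419 and 898 bases took 93.0% of Snhg3 at 60 h and 100% in the other libraries. Snhg3 overlaps Rcc1, the gene for the exchange factor of the GTPase Ran, on the same strand. Of the 50-base words of Snhg3 transcripts, 6.01% also occur in Rcc1. Rcc1 held 86.3 ± 4.03 FPKM in growth, 22.7 ± 1.81 at 60 h, 12.2 ± 1.45 at 120 h and 10.8 ± 2.07 at 168 h. It fell at 60 h (log2 ratio -1.88) and at 168 h (-2.89) against growth. Transcripts that ran from Snhg3 on through the 4001-base intron toward Rcc1 held 1.09 ± 0.875 FPKM at 60 h and 1.31 ± 0.787 at 120 h. The one at 60 h was counted to Snhg3 and the one at 120 h was not. The sums and merged values at 120 h against 60 h thus compare unlike sets. The value through the introns takes both, and there the log2 ratio was -0.92, not called. Phactr4, an actin-binding protein gene on the same strand, fell at 168 h against growth (-1.15). Gm17300 overlaps Snhg3 on the opposite strand and was not named in the assemblies.

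Single-exon pieces within the 898-base intron that holds Snora73a were assembled in all 4 libraries. In growth a piece of 728 bases covered the whole snoRNA with 19.6 ± 1.94 FPKM. At 60 h a piece of 189 bases held 8.83 ± 1.97 FPKM and lay wholly within Snora73a, covering 92.2% of it. At 120 h a piece of 188 bases held 4.13 ± 1.89 FPKM and covered 91.7%, and at 168 h a piece of 205 bases held 3.23 ± 1.198 FPKM and covered 97.1%. The intervals at 120 h and 168 h overlapped. Snora73b was touched in growth alone, by a piece of 75 bases at 37.4 ± 8.36 FPKM, and because 198 of 205 bases are shared a fragment may have been placed at either copy. In Gas5, pieces over Gm22357 held 17.4 ± 3.85 FPKM in growth and 10.8 ± 3.32 FPKM at 60 h. A piece that covered 28.3% of Gm23212 held 7.89 ± 3.72 FPKM in growth. Over Gm25855 of Snhg1, in the 634-base intron that was spliced in no library, pieces held 1.24 ± 1.02 FPKM at 120 h, covering 13.9% of it, and 0.765 ± 0.461 FPKM at 168 h, covering all of it. No single-exon piece over a snoRNA was assembled in Snhg5, Snhg6, Snhg8 or Snhg12. Exons of spliced forms also ran over some snoRNAs, and such bases are part of the sums and of the merged exons. In growth the exon before the 213-base intron of Snhg1 took in the whole of Gm25855. A 2-exon piece of Snhg12 in growth, at 9.14 ± 1.89 FPKM, took in the whole of Snora61. In Gas5 a 2-exon piece in growth, at 19.9 ± 2.10 FPKM, took in the whole of Snord78, as did forms at 60 h and 168 h.

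Snhg8, the host of Snora24, was first or second by sums and first over the merged exons in every library (chr3:123210476-123211270, minus strand). It held 164.4 ± 7.69 FPKM in growth, 88.3 ± 4.43 at 60 h, 85.7 ± 6.40 at 120 h and 134.6 ± 5.93 at 168 h. Growth was highest and 168 h next, both apart from the overlapping 60 h and 120 h libraries. The log2 ratio was -0.89 at 60 h against growth, -0.04 at 120 h against 60 h, 0.64 at 168 h against 120 h and -0.29 at 168 h against growth, none called. Over the merged exons these were -0.95, -0.17, 0.67 and -0.45. All of its expression in each library lay in 1 form with introns of 156 and 249 bases, and its 342 to 390 assembled exon bases give the 3 values little room to part. Prss12, a serine protease gene 955 bases away on the opposite strand, held 1.56 to 3.11 FPKM and was not called.

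Snhg12, which carries Snora16a, Snora44, Snora61 and Snord99, was higher at 60 h and at 168 h than in growth (chr4:131864581-131867041, plus strand). It held 34.6 ± 2.95 FPKM in growth, 47.7 ± 2.54 at 60 h, 35.9 ± 3.10 at 120 h and 51.7 ± 2.75 at 168 h. The growth and 120 h libraries overlapped, as did those at 60 h and 168 h, and the pairs were apart. The log2 ratio at 168 h against growth was 0.57 by sums, 0.99 through the introns and 0.54 over the merged exons, none called. At 60 h against growth the ratios were 0.45, 0.88 and 0.41. The full chain, with introns of 930, 247, 235 and 329 bases, held 73.6% of Snhg12 in growth, where a 2-exon piece around the 247-base intron held the other 26.4%, and 100% in the later libraries. Trnau1ap, a selenocysteine tRNA-associated protein gene on the opposite strand, held 27.7 ± 4.07, 25.9 ± 3.77, 20.9 ± 1.77 and 27.2 ± 4.74 FPKM and was not called.

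**Figure D4:**
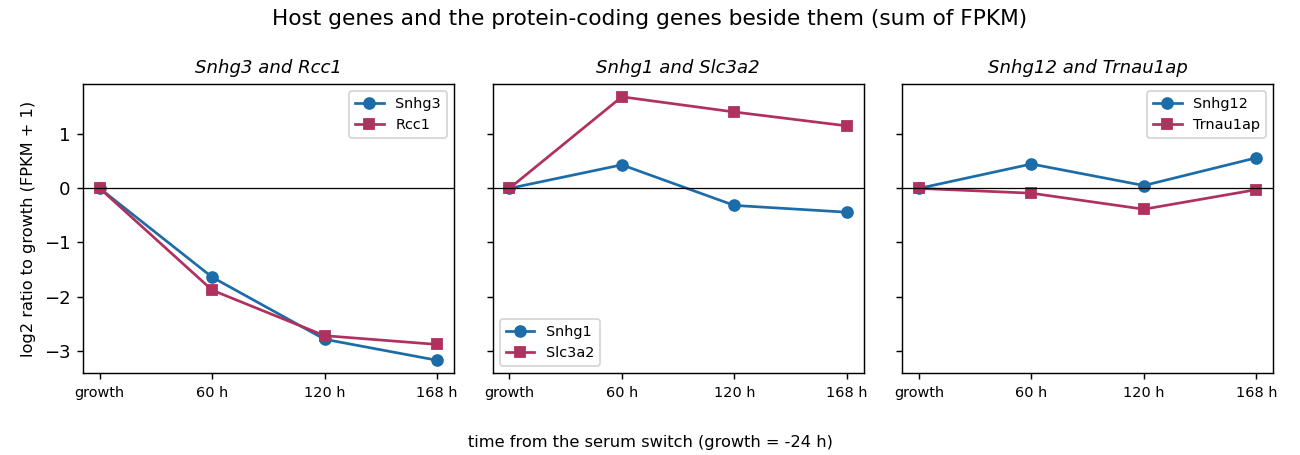
Log2 ratio to growth of FPKM + 1 (vertical axis, sums over transcripts) by time point, growth first, for Snhg3, Snhg1 and Snhg12 (circles) and the protein-coding gene beside each (squares). Snhg3 and Rcc1 lie together, at -3.18 and -2.89 by 168 h, while Slc3a2 lies at 1.69 at 60 h, where Snhg1 lies at 0.44.

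Slc3a2, the heavy chain of an amino acid transporter, starts 106 bases from Snhg1 on the opposite strand. It held 134.9 ± 4.50 FPKM in growth, 438.7 ± 4.35 at 60 h, 361.0 ± 7.83 at 120 h and 302.0 ± 5.598 at 168 h. Slc3a2 rose at 60 h (log2 ratio 1.69) and at 168 h (1.16) against growth, where Snhg1 was not called by sums in either comparison. Zbtb37, which overlaps the start of Gas5 on the opposite strand, held 2.39 ± 0.962, 1.35 ± 0.362, 4.05 ± 2.19 and 1.33 ± 0.617 FPKM and rose at 120 h against 60 h alone.

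In order of FPKM sums, growth ran Snhg8, Gas5, Snhg3, Snhg5, Snhg1, Snhg12 and Snhg6. The intervals of Snhg8 and Gas5, of Snhg3 and Snhg5, and of Snhg1 and Snhg12 overlapped, so that those neighbours were not distinct. At 168 h the order was Snhg8, Gas5, Snhg12, Snhg1, Snhg5, Snhg3 and Snhg6, and only the last 2 overlapped. By sums Snhg3 was thus the third of the 7 in growth and the sixth at 168 h, and Snhg12 the sixth in growth and the third at 168 h. By the merged exons Snhg3 was the second in growth, overlapping Gas5, and the last at 168 h, overlapping Snhg6, Snhg12 the sixth in growth and the second at 168 h, and Gas5 the third in growth, at 120 h and at 168 h and the fourth at 60 h. Likeness was taken as the Euclidean distance between the 3 log2 ratios to growth. Over the merged exons Gas5 lay 0.146 from Snhg5, 0.508 from Snhg8 and 0.556 from Snhg6, and the farthest pair was Snhg3 and Snhg12 at 5.27. By sums Gas5 lay 0.872 from Snhg8, 0.98 from Snhg1, 1.23 from Snhg5 and 1.48 from Snhg6, and Snhg3 and Snhg12 lay 5.15 apart. By sums the profile of Gas5 was also the median profile of the 7 genes, at -0.48, -0.35 and -0.79. Of 7132 candidate protein-coding genes assembled in all 4 libraries, 90 lay within 0.25 of it. The nearest 5 were Tmeff1 (distance 0.0274), Exoc1 (0.0488), Gm38394 (0.0647), Pfdn6 (0.0834) and Psmd12 (0.0882).

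Among 11 other noncoding snoRNA hosts, 7 were named, and their median log2 ratio at 60 h against growth was -0.55. Snhg10 was the 1 gene of these that fell at 60 h by sums, with 2.19 ± 0.619 FPKM at 60 h against 10.3 ± 2.41 in growth. Snhg15 held 22.9 ± 2.56 FPKM at 60 h against 39.4 ± 5.25 in growth and Snhg17 9.89 ± 1.59 at 60 h against 14.9 ± 2.88 in growth, neither called by sums, and Snhg15 fell through the introns (log2 ratio -1.08). At 168 h against growth 3 of the 7 fell and Snhg18 rose (log2 ratio 1.32). Zfas1, host of several box C/D snoRNAs, was at 209.2 ± 8.51, 174.9 ± 5.15, 191.0 ± 8.49 and 217.8 ± 6.18 FPKM from growth to 168 h, above each of the 7 genes in every library by sums, while over the merged exons it held 151.6 FPKM in growth, where Snhg8 held 164.4. Of 30 protein-coding snoRNA hosts compared, 6 fell and 3 rose at 60 h against growth, with a median of -0.47. With median-ratio rescaling 3 fell and 4 rose, with a median of -0.25. Among those that rose as deposited were Rps20 and Rpl7a, ribosomal protein genes with near-identical copies that make their values uncertain. Rps20 was listed at 0 in growth, so no fold is given, and Rpl7a held 81.1 ± 3.43 FPKM at 60 h against 5.36 ± 0.838 in growth.

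Of 18 proteins of snoRNP particles and their assembly, 8 fell and none rose at 60 h against growth, with a median of -0.94, and 11 fell and none rose at 168 h against growth, with a median of -1.21. Over the merged exons 7 and 13 fell. Fbl, the methyltransferase of box C/D particles, held 12.3 ± 1.18 FPKM at 60 h against 52.6 ± 3.85 in growth. Gar1, a core protein of H/ACA particles, held 19.5 ± 1.16 FPKM at 60 h against 145.2 ± 6.93 in growth, with a log2 ratio of -2.83 by sums, -1.51 over the merged exons and -0.90 through the introns, not called. Ruvbl1, an ATPase of particle assembly, fell by sums (-1.62) and was not called over the merged exons (-0.49) or through the introns (0.01). Of 19 factors of nonsense-mediated decay, 2 fell and none rose at 60 h against growth, with a median of -0.50. Upf3a, a factor at the exon junction, fell to 11.5 ± 0.786 FPKM at 60 h, against 26.3 ± 1.56 in growth. Magoh, a subunit of the exon junction complex, held 53.0 ± 2.61 FPKM at 60 h against 104.4 ± 4.71 in growth, and the helicase Dhx34 5.00 ± 0.472 at 60 h against 10.3 ± 1.47 in growth, neither called by sums, and Dhx34 fell over the merged exons (log2 ratio -1.28).

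Of 17 translation factors of the oligopyrimidine class, 2 fell and 1 rose at 60 h against growth, with a median of -0.34. Npm1, a nucleolar chaperone, fell to 12.8 ± 2.03 FPKM at 60 h, against 38.6 ± 4.37 in growth. Eef1a1, an elongation factor with near-identical copies, rose by sums, with 1486 ± 16.6 FPKM at 60 h against 740.8 ± 50.4 in growth, and was not called over the merged exons (log2 ratio 0.03). Rack1, a ribosomal scaffold, fell by sums (-1.63) and through the introns (-1.62), and was not called over the merged exons (-0.36). Of 23 genes of mTOR signalling and translation control, 3 rose and 1 fell, with a median of 0.16. Ddit4 and Sesn2, which restrain mTOR complex 1, rose to 160.4 ± 2.69 and 45.2 ± 1.04 FPKM at 60 h, against 47.4 ± 1.93 and 15.0 ± 0.769 FPKM in growth. Rictor, a subunit of mTOR complex 2, fell by sums (-2.21) and over the merged exons (-1.07), and was not called through the introns (-0.35). In a list of other growth arrest-specific genes that also holds the receptor kinase Axl, 7 were named, with a median of -0.71. Axl fell by sums, and no other gene of the list was called by sums. Axl held 71.0 ± 6.93 FPKM at 60 h against 201.5 ± 13.8 in growth. Gas2l1 held 24.2 ± 1.09 FPKM at 60 h against 42.4 ± 2.57 in growth and Gas8 17.4 ± 0.917 at 60 h against 24.8 ± 1.44 in growth, neither called by sums, and Gas2l1 fell through the introns. Over all genes compared at 60 h against growth, 15.4% fell and 11.1% rose. With median-ratio rescaling, 1 fell and 1 rose among the other noncoding hosts, and likewise among the decay factors. Of the translation factors 2 fell and 2 rose, of the snoRNP proteins 7 fell and 0 rose, and of the mTOR list 1 fell and 5 rose. These lists are described and were not tested against the other genes.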

How the data were processed

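Poly(A) RNA was fragmented by heat, reverse transcribed with random hexamers and read from both ends, per the labels' protocols. The authors deposited 1 transcript assembly per library, with an RPKM and confidence limits on every transcript line and Cufflinks as the source. TopHat 1.0.13 and Cufflinks 0.8.0 are listed, per the submitters' processing notes, in no stated role. No build is given in the sources used here, so assembled positions are printed as deposited. RPKM is written FPKM, because it counts fragments: in genes with 1 transcript each deposited limit is 2 square roots of the fragment count away from the value, which also gave the library sizes. Low values then came to whole fragments, within 0.01, in 93.6% to 94.5% of cases, and assembled transcripts took 86.9% to 89.7% of each library.

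Runs of intron, exon and intron lengths in GENCODE M21 named 122766 of 137519 introns, and 5458 more were named by length between named neighbours. A transcript of 1 exon went to a gene whose assembled exons covered at least 50% of it. The size rule was tried on simulated fragment counts over fixed exons, which hold none of the broken assemblies seen here. Naming was tried on annotation transcripts looked up among themselves, which could not return a wrong gene, so it measures no naming error. Python 3.11.15, numpy 2.4.6, pandas 2.3.3 and matplotlib 3.10.9 were used.

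The 7 genes, the 10 lists and the rules were chosen with earlier results of these data known. Named were the 7 genes, their forms with at least 20% of the expression in a library, genes within 5000 bases, the 5 nearest profiles, and 3 genes of each list by the size of the log2 ratio at 60 h against growth, if they reached 10 FPKM. Zfas1 and Snhg18 were added after their values were seen. The rule also took Mki67, Cdk1, Mcm5, Ckm, Acta1 and Mymk from the markers, given as sums. Some genes that the rule takes are not reported here. Alternatives were a pseudocount of 0.1, no minimum or 5 FPKM, 2 scalings, 3 other gene values, a 4-fold rule and, chosen after seeing the data, the merged exons with median-ratio rescaling.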

Additional observations from a re-analysis of the deposited data

How the results depend on the processing

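The number of the 7 genes called was 1 in each comparison between successive libraries and 3 at 168 h against growth. Under the 4-fold rule it was 0 at 60 h against growth, 0 at 120 h against 60 h and 0 at 168 h against 120 h. At 120 h against 60 h 2 were called over the merged exons and 0 through the introns. At 168 h against 120 h it was 0 over the merged exons, and 0 with median-ratio rescaling of that value, chosen after seeing the data. The log2 ratio of Snhg6 at 168 h against 120 h, -1.95 by sums, was 0.22 over the merged exons and 0.19 with that rescaling, and its assembled exon bases are given with its forms. Snhg5 at 168 h against growth was -0.81 with that rescaling, not called, and Snhg1 over the merged exons lost both its calls. Median-ratio rescaling moved the median log2 ratio of all genes at 60 h against growth to 0.02, against -0.18 as deposited, and that of the 7 genes to -0.25, against -0.48. Of the log2 ratios of the 7 genes under alternatives, 255 kept sign and call, 7 lost the call and 2 gained it. The sign changed in 16, of which 2 were the called value of Snhg6 and 14 were values not called, all in Gas5, Snhg1, Snhg5, Snhg6 or Snhg8 and at most 0.88 in size. No paired analysis was possible because each time point has 1 library, each numbered replicate 1, and no test was made. Without replicates, the intervals cover counting error and, in genes with more than 1 transcript, doubt in dividing fragments between them, but no error in assembled length, and the 120 h library, with 50 fragments for Snhg3 and 103 for Snhg6, limits those values most.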
